A study of Mus musculus with 3 samples.

Results

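The definitive and gut endoderm cells of the mouse embryo at the start of somite formation were examined as 1593 of 22168 cell barcodes that passed quality control. The cells were chosen by measured values. A barcode entered when it held at least 1 UMI (unique molecular identifier, a count of captured RNA molecules) of at least 3 of the 6 genes Trh, Gpx2, Cpm, Sox17, Foxa1 and Apela. It also had to hold fewer than 30 UMIs of Ttr and Apoa1 together per 10000, and none of Noto, Foxj1 or Kdr, the genes used against visceral endoderm, node and endothelium. These 11 genes are called the selection genes, and the barcodes that met the rule are called endoderm cells or members. The study profiled 3 whole wild-type embryos by single-cell RNA sequencing, 1 library each, to describe the cells of the left-right organizer, the node. All 3 came from a C57BL/6 x 129 SvEv background, were collected at E8.0 and received no treatment. The sample labels give up to 2 somites and the protocol up to 1 somite. Extraembryonic tissue was dissected away before dissociation, and the study gives all embryos as male by genotyping. There is therefore 1 group, wild type, with n = 3 embryos, and every comparison is between classes of cells within the same embryos.

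Definitive endoderm arises from the primitive streak during gastrulation, moves into the outer layer of the embryo and intercalates among visceral endoderm cells that were there before. The resulting sheet folds into foregut, midgut and hindgut, from which the lining of the gut tube, thyroid, lung, liver and pancreas develops. Sox17 and the forkhead factors Foxa1 and Foxa2 are its long-known regulators, while Ttr and Apoa1 encode secreted proteins abundant in visceral endoderm.

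The 3 embryos held 677, 486 and 430 endoderm cells, which were 11.05%, 5.99% and 5.43% of their barcodes, or 7.49% ± 3.09 (SD, n = 3). Embryo 1 had the highest share, and the share is set by the rule and carries no test. Embryo 1 was also the deepest library, with a median of 26705 UMIs per barcode against 14461 in embryo 2 and 16242 in embryo 3. Members had medians of 23716, 14411 and 17946.5 UMIs, close to the 26921, 14464 and 16175 of all other barcodes. With every barcode thinned to 5000 UMIs and the rule applied to the thinned counts, the share was 5.33% on average over the embryos. No member's barcode sequence was shared between libraries.

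A total of 152 members had under 0.5% mitochondrial UMIs, and they made up 16.5% of the members of embryo 1, 4.73% of embryo 2 and 3.95% of embryo 3. Among all other barcodes the corresponding shares were 4.07%, 1.80% and 0.827%. The highest doublet scores, those of the top 6% of barcodes in each library, were held by 8.98% of members and 5.77% of other barcodes. Both features were more common in members, so each count of genes was also taken without those barcodes. Beyond its limits per barcode, the study discarded clusters whose mitochondrial share and gene number were abnormally low and whose cell type markers were mixed. That step was not repeated here.

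The 6 genes that had to be present were all far above the rest of the embryo, as the rule requires, so the following levels are a description. Levels are given in CPM, the UMIs of a gene per 1000000 UMIs summed over a class of cells in 1 embryo. Trh, which encodes the precursor of thyrotropin-releasing hormone, stood at 419, 455 and 393 CPM in members and at 27.1, 19.6 and 17.9 in all other barcodes. Sox17, a transcription factor required for definitive endoderm, had 110, 200 and 137 CPM against 10.4, 15.6 and 13.9. Foxa1 had 44.3, 44.97 and 34.7 CPM against 2.03, 1.36 and 0.999. No embryo's members fell into the range of the other barcodes for any of these 3 genes. In mm10, Trh lies at chr6:92242061-92244650, Sox17 at chr1:4490931-4497354 and Foxa1 at chr12:57540628-57546916, all on the minus strand.

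Apela, which encodes a peptide ligand of the apelin receptor, reached 376, 363 and 309 CPM in members against 48.2, 32.1 and 43.0. Gpx2, a glutathione peroxidase, had 149, 179 and 148 CPM against 6.19, 4.87 and 3.43. Cpm, a carboxypeptidase anchored to the cell membrane, had 204, 188 and 127 CPM against 8.42, 7.37 and 6.30. Cpm was lowest in embryo 3 and Sox17 highest in embryo 2, so the 6 genes did not order the embryos alike. Free RNA in droplets puts UMIs into cells that do not express a gene. Trh UMIs were present in 89.5% ± 1.303 of members and 19.98% ± 2.90 of presomitic mesoderm barcodes, a class defined by at least 3 of Tbx6, Msgn1, Dll1 and Dll3, with a median of 27788 UMIs against 18924 in members. After thinning to 5000 UMIs the shares were 65.4% ± 3.52 and 5.03% ± 0.456. For Foxa1 they were 47.8% ± 6.61 and 1.75% ± 0.364 before thinning, and 21.3% ± 4.19 and 0.459% ± 0.247 after it. Of the 6 genes, Apela was the most often detected in presomitic barcodes. Its shares were 93.7% ± 2.48 and 38.95% ± 5.03 before thinning, and 69.9% ± 2.11 and 11.2% ± 1.34 after it. Among all other barcodes 37.2% ± 9.09 held Apela UMIs before thinning, so Apela counted toward the rule in many barcodes outside the members. All 6 genes were more often detected in members than in presomitic cells, by the rule.

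The same genes were not limited to the members. Barcodes of the node and notochord, those with T, Shh and either Noto or Foxj1 (240 in all), held Trh at 221, 302 and 97.0 CPM, and Gpx2 at 118, 82.9 and 54.2 CPM. Ttr/Apoa1-high barcodes, the 2490 that reached the limit of 30 UMIs of Ttr and Apoa1 per 10000, lacked Noto, Foxj1 and Kdr and stand for visceral endoderm, held Sox17 at 72.8, 49.0 and 66.5 CPM. Trh UMIs were found in 43.2%, 25.97% and 34.1% of the node barcodes, or 16.6% ± 2.49 after thinning to 5000 UMIs, so a minority of that class held them. Apela UMIs were found in 54.1% ± 9.98 of the node barcodes, or 23.5% ± 11.8 after thinning to 5000 UMIs.

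**Figure D1:**
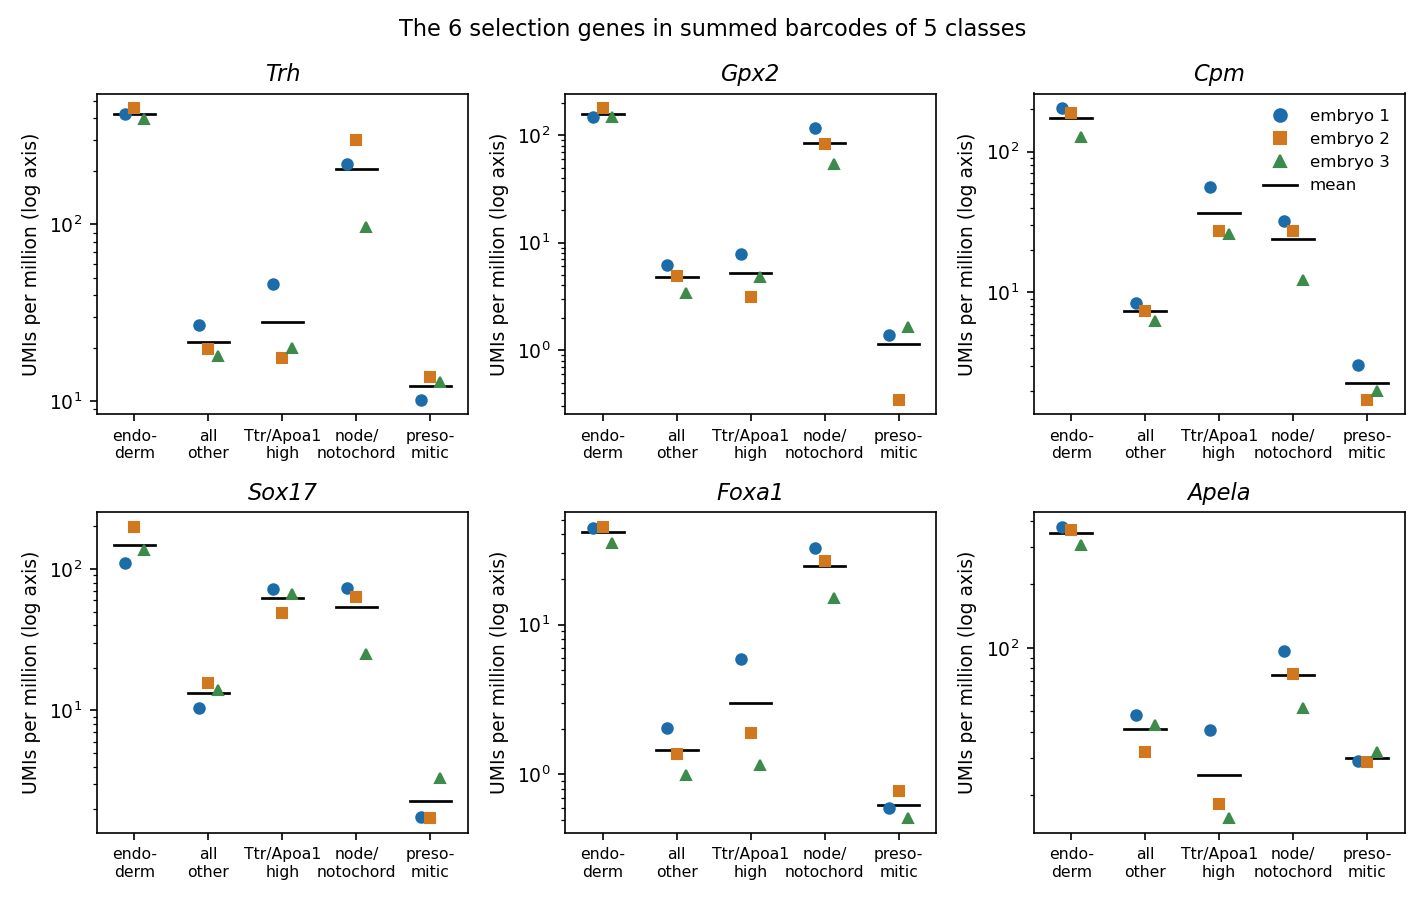
CPM of the 6 genes required by the selection (log axes), for endoderm members, all other barcodes, Ttr/Apoa1-high, node/notochord and presomitic barcodes; each point is 1 embryo and the line is the mean. Members lie highest for every gene in the mean, and the node class comes closest for Trh, Gpx2, Foxa1 and Apela.

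The number of selection genes present separated members that looked unlike each other. Exactly 3 of the 6 were found in 416 members, 4 in 335, 5 in 425 and all 6 in 417. Foxa2, which the rule did not use, had 11.5, 38.0 and 23.9 CPM in members with 3 genes, against 87.5, 70.6 and 86.3 CPM in those with 6. Just outside the limit, barcodes with 2 genes had 7.30, 8.33 and 7.09 CPM. The epithelial keratin Krt18 had 219, 896 and 440 CPM with 3 genes, between 130, 255 and 212 with 2 genes and 1434, 2120 and 1722 with 6. Sox2, a factor of neural and foregut progenitors, ran the other way, with 88.5 ± 13.2 CPM at 3 genes and 15.4 ± 6.39 at 6. Members with 3 genes in embryo 1, which were 25.0% of its members, were close to the barcodes outside the rule in both Foxa2 and Krt18, which goes against the label for them. The level of Foxa2 was similar at 5 and 6 genes, 83.4 ± 4.47 and 81.5 ± 9.42 CPM. Median depth was 23150, 11396, 16579 and 26579 UMIs at 3, 4, 5 and 6 genes, so members with 3 genes were deeper than those with 4, and from 4 to 6 genes depth rose in each embryo. The part of depth in these levels was not tested. Results are therefore also given for the 1177 members with at least 4 of the 6 genes.

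**Figure D2:**
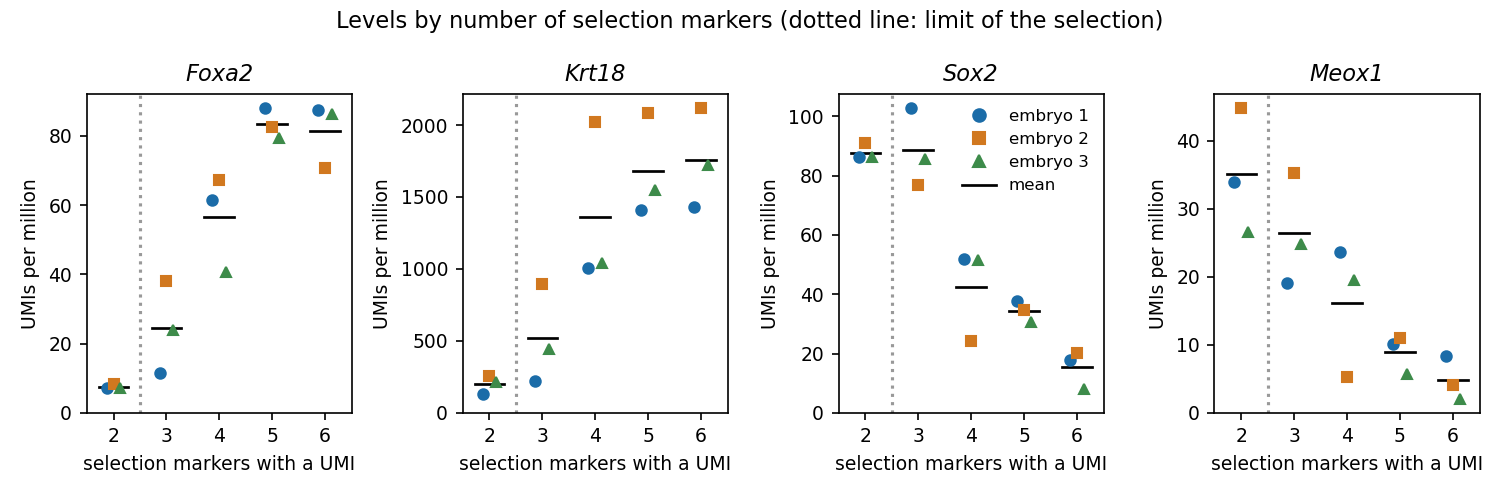
CPM of Foxa2, Krt18, Sox2 and Meox1 in barcodes with 2 to 6 of the 6 required genes; each point is 1 embryo, the line is the mean and the dotted line is the limit of the selection. Foxa2 and Krt18 are higher and Sox2 and Meox1 lower at 6 genes than at 3, and in embryo 1 the barcodes with 3 genes lie near those with 2.

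At the other limit, 55 members had 15 to 30 UMIs of Ttr and Apoa1 per 10000 and 44 excluded barcodes had 30 to 45. Spink1, a secreted trypsin inhibitor abundant in visceral endoderm, had 5486 ± 1290 CPM just inside and 5131 ± 2048 just outside. Apoa2, an apolipoprotein, had 20.3 ± 14.4 and 138 ± 111 CPM. Of the excluded barcodes, 45.5% had a top doublet score, against 14.5% of the members just inside.

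Endoderm cells were compared with all other barcodes of the same embryos on summed UMIs, with embryo as the replicate and edgeR's quasi-likelihood test. Genes whose expression follows the selection genes from cell to cell had to differ, so the calls describe the class and do not test its identity. Of 15814 genes tested, 1454 were higher in endoderm cells, which is 9.19%, and 1000 were lower, which is 6.32%, at a Benjamini-Hochberg adjusted p below 0.05. With the embryo as a block the numbers were 2629 and 2691. With members of at least 4 selection genes they were 2077 and 1882. Leaving out 1 embryo lowered them, to 1163 and 788 without embryo 1, 623 and 237 without embryo 2, and 477 and 149 without embryo 3. Without the top doublet scores 1620 and 1240 were called, and without barcodes under 0.5% mitochondrial UMIs 1439 and 950. When 2 selection genes sufficed, 584 genes were called higher and 21 of the named calls were lost, those of Gsc, Lhx1, Mixl1, Snai1, Nkx2-3, Hhex, Pyy, Hoxb2, Cpe, Ihh, Shh, Cxcr4, Cd24a, Slc16a1, Slc16a3, Col4a1, Col4a2, Igfbp5, Apln, Fn1 and Spink1. Gene lists were drawn up by function, and their counts are to be read beside these background shares.

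Epithelial genes were the most uniformly higher list in that comparison. Of 18 genes tested, 17 were higher and none lower, with a median log2 fold change of 1.90 against -0.01 over all genes tested. Krt18 had 996, 1792 and 1120 CPM in members and 252, 351 and 331 in all other barcodes, and the classes did not overlap. It was higher by 2.05 ± 0.23 on the log2 scale (SE, n = 3 embryos; adjusted p = 0.0011). The same held for its partner Krt8 (1.81 ± 0.17, adjusted p = 0.00049) and for the adhesion molecule Epcam (1.91 ± 0.13, adjusted p = 0.00017). The tight junction claudin Cldn4 and the keratin Krt7 showed the largest differences in the list, 3.61 ± 0.29 and 3.66 ± 0.27. Ovol2 and Grhl2, transcription factors that maintain epithelia, were higher by 2.58 ± 0.16 and 1.93 ± 0.22. Cldn3 did not pass (0.78 ± 0.23, adjusted p = 0.056), but did with the embryo as a block (adjusted p = 0.0059).

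Mesenchymal genes were the mirror image, with 12 of 12 lower and a median log2 fold change of -1.27. The number lower was 8 without embryo 1, 9 without embryo 2, and 7 without embryo 3 or when 2 selection genes sufficed. Twist1, a transcription factor of mesoderm and mesenchyme, had 20.4, 17.5 and 24.1 CPM in members and 74.2, 65.5 and 65.0 in all others, without overlap. Its difference was -1.73 ± 0.12 (adjusted p = 0.00017). Zeb1 and Snai1, repressors of E-cadherin, differed by -1.55 ± 0.18 and -1.25 ± 0.19, and the intermediate filament gene Vim by -0.87 ± 0.07. The Snai1 call was lost without embryo 3.

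Endoderm transcription factors split. Of 17 tested, 6 were higher, 6 were lower and 5 were not called, with a median log2 fold change of -0.31. Without embryo 2 the counts were 3 and 2, and without embryo 3 they were 3 and 3. With the Ttr/Apoa1-high barcodes out of the comparison class they were 7 and 4 and the median was 0.80, and under the embryo block they were 6 and 8. Foxa2 had 60.6, 65.2 and 55.1 CPM in members and 9.96, 12.6 and 9.75 in the others, a difference of 2.47 ± 0.13 (adjusted p = 9.4e-05) with no overlap. Foxa3 had the same difference, 2.47 ± 0.24 (adjusted p = 0.00058). Prdm1, a repressor present in anterior definitive endoderm, was higher by 1.45 ± 0.16 and Gsc, a homeobox gene of the anterior streak, by 1.34 ± 0.27. The Gsc call was lost without embryo 2, without embryo 3, with at least 4 selection genes, when 2 sufficed (0.84) and with selection on thinned counts (0.62). Hnf4g was higher by 3.15 ± 0.62, at 0.205 ± 0.0170 CPM only.

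Among the lower factors, Hnf4a and Gata4, both strong in visceral endoderm, were lower by -2.79 ± 0.50 and -0.62 ± 0.15. With the Ttr/Apoa1-high barcodes taken out of the comparison class, the Hnf4a difference became 1.33 and did not pass (adjusted p = 0.069), and the call was lost without embryo 2 or without embryo 3. The Gata4 call was lost in the same 3 fits, with at least 4 selection genes and in both fits at 5000 UMIs per barcode. Sox7 and Sox18, relatives of Sox17 in endothelium, were lower by -3.61 ± 0.36 and -4.66 ± 0.46, and the rule had excluded every barcode with a UMI of the endothelial receptor Kdr. Lhx1 and Mixl1, genes of the streak and axial mesoderm, were lower by -0.84 ± 0.19 and -0.83 ± 0.19. The Mixl1 call was lost when any 1 embryo was left out, and the Lhx1 call without embryo 1 or embryo 2. Gata6 did not pass the test at 52.1 ± 7.29 against 50.1 ± 4.59 CPM (log2 difference 0.04 ± 0.12).

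**Figure D3:**
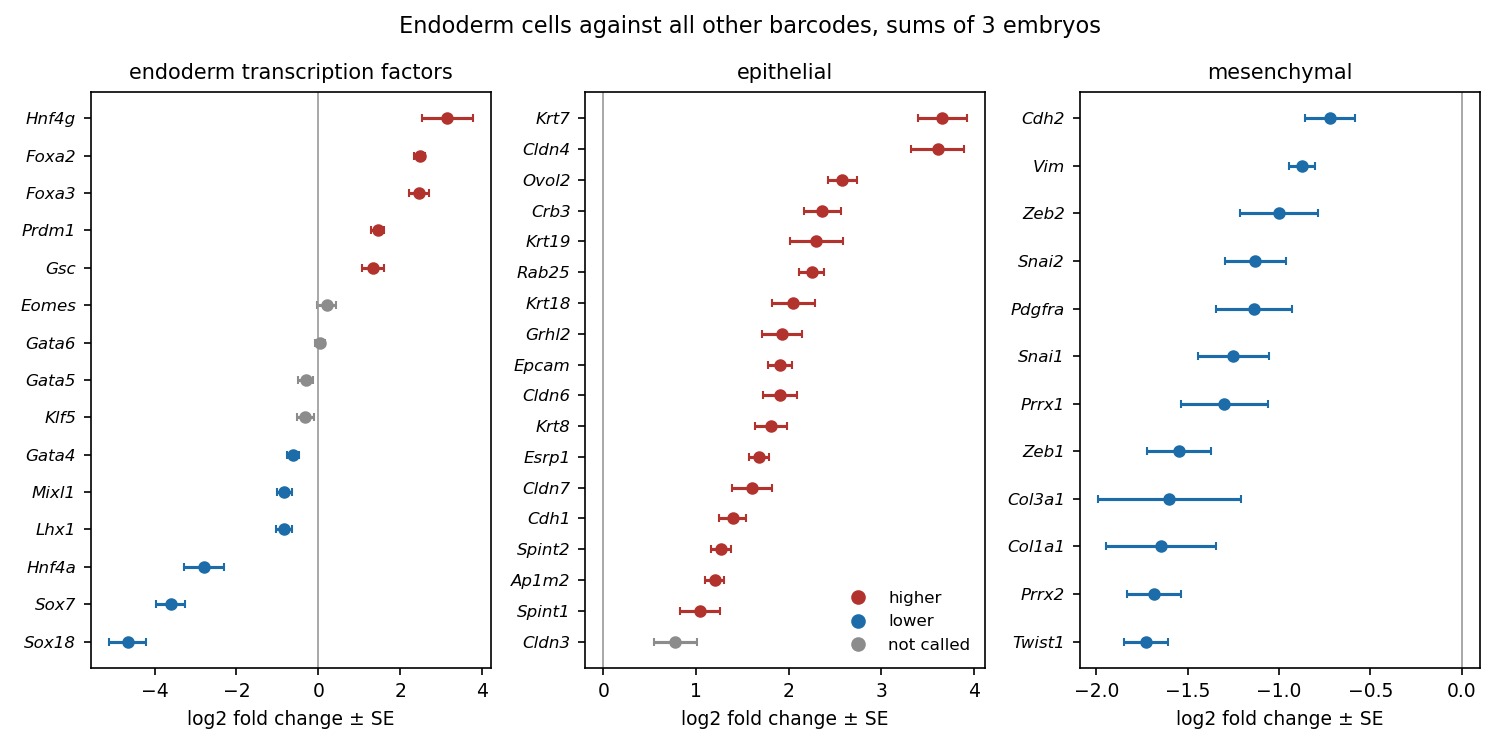
Log2 fold change with its standard error (x axis) for genes of the endoderm transcription factor, epithelial and mesenchymal lists, endoderm cells against all other barcodes in 3 embryos; red marks genes called higher, blue lower and grey not called. All mesenchymal genes lie below 0, all epithelial genes above it, and the transcription factors spread from -4.66 (Sox18) to 3.15 (Hnf4g).

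Among genes that regionalize the gut tube, the rostral list differed from the rest of the embryo. Of 12 rostral gut genes 7 were higher and 1 lower, with a median of 1.55. Without embryo 3 the counts were 4 and 0, with 2 selection genes 3 and 1, and with the embryo as a block 9 and 2. Pax9, a factor of the pharyngeal endoderm, had 35.5, 38.0 and 22.2 CPM in members against 1.23, 0.914 and 0.826 in the others. The classes did not overlap, and the difference was 5.00 ± 0.24 (adjusted p = 9.4e-05). Nkx2-1, the factor of thyroid and lung, was higher by 4.78 ± 0.63 at only 0.791 ± 0.431 CPM. Dkk1, a secreted Wnt inhibitor, was higher by 1.83 ± 0.13. Hhex, of the anterior endoderm and later the liver, had 20.3, 49.1 and 20.99 CPM against 7.72, 9.11 and 11.5, a difference of 1.64 ± 0.33 (adjusted p = 0.013). Without embryo 3 the adjusted p of Hhex was 0.0595, and when 2 selection genes sufficed its difference was 0.42 (adjusted p = 0.59).

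Embryo 2 stood apart in several of these genes. Nkx2-3, a homeobox gene of the pharynx and gut, had 6.99, 31.4 and 4.84 CPM in members against 0.848, 1.48 and 1.17 in the others. Nepn, an extracellular matrix gene of the posterior foregut and midgut, had 2.52, 22.1 and 1.41 CPM against 0.195, 0.205 and 0.115. Both were highest in embryo 2 and above the other barcodes in every embryo. The Nkx2-3 difference of 3.58 ± 0.66 became 2.57 without embryo 2, and the Nepn difference of 5.59 ± 1.01 became 3.70. The peptide hormone gene Pyy had 1.47, 11.5 and 0.807 CPM against 0.401, 0.746 and 0.442, a difference of 3.03 ± 0.85 (adjusted p = 0.046). The Pyy call was lost when any 1 embryo was left out, and without embryo 2 the difference was 1.5.

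Of 12 caudal genes, 1 was higher (Nepn) and 1 lower (Hoxb2, -0.97 ± 0.15), with a median of -0.20. These counts depended on the fit. They were 3 and 5 with the embryo as a block, 2 and 4 under DESeq2, and 5 and 0, with a median of 0.68, when 2 selection genes sufficed. The Hoxb2 call was lost without embryo 3. Cdx2, the caudal homeobox gene, had 126 ± 5.47 CPM in members and 108 ± 8.69 in the others (log2 difference 0.22 ± 0.07, adjusted p = 0.085, and 0.0077 with the embryo as a block). Caudal mesoderm and neuromesodermal cells, which are part of the comparison class, also express Cdx and posterior Hox genes. With members of at least 4 selection genes, 7 of the 12 caudal genes were lower and 1 was higher.

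Members could be split by these genes, which is a description since the genes define the split. At least 2 UMIs of Cdx1, Cdx2 and Cdx4 were found in 821 members (caudal), and at least 2 of Hhex and Otx2 with no Cdx UMI in 292 (rostral). Trh had 619 ± 62.8 CPM in rostral and 335 ± 67.0 in caudal members, and Apela 506 ± 41.5 and 233 ± 11.2 CPM. Cpm had 410, 318 and 281 CPM in rostral against 107, 107 and 81.6 in caudal members. Sox17 ran the other way at 87.4 ± 5.25 against 151 ± 67.3 CPM, with caudal members higher in each embryo (106, 228 and 118 against 93.2, 86.2 and 82.9). Caudal members were deeper, with a median of 26232 UMIs against 16899.5, and 15.1% of them had a top doublet score against 3.42% of rostral members. Cdx2, one of the genes of the split, had 150 ± 25.1 CPM in members with 3 selection genes and 118 ± 16.2 with 6. With 3 selection genes Trh had 137 ± 76.2 CPM and Apela 126 ± 35.4, against 544 ± 59.6 and 515 ± 64.1 with 6. Cpm and Sox17 were lower with 3 as well. The part of depth, doublets and the number of selection genes in the levels of caudal and rostral members was not tested.

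Aplnr, the apelin receptor, which binds the product of the selection gene Apela, had 7.38 ± 2.17 CPM in members and 24.1 ± 4.82 in the others, a difference of -1.68 ± 0.21 (adjusted p = 0.0018). The alternative ligand Apln was lower too, by -1.13 ± 0.30, a call lost without embryo 2, without embryo 3, without the Ttr/Apoa1-high barcodes and against barcodes with fewer than 2 selection genes, and turned to 0.026 when 2 sufficed. Of 4 enzymes known to process neuropeptide precursors such as that of Trh, the carboxypeptidase Cpe was lower (-0.72 ± 0.19) at 7.75 ± 1.58 CPM, a call lost when any 1 embryo was left out. The amidating enzyme Pam did not pass (0.36 ± 0.12, adjusted p = 0.072) at 14.6 ± 1.70 against 11.4 ± 0.920 CPM. It was called higher with the embryo as a block (adjusted p = 0.010), under DESeq2, with at least 4 selection genes, without the top doublet scores and in both fits at 5000 UMIs. The convertases Pcsk1 and Pcsk2 had 2.30 ± 0.490 and 0.791 ± 0.388 CPM without passing the test. Pcsk1 was called higher when 2 selection genes sufficed, and Pcsk2 lower with at least 4 and with selection on thinned counts.

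In the hedgehog pathway, the ligands Ihh and Shh were higher by 2.03 ± 0.33 and 1.32 ± 0.25, and the ligand-binding inhibitor Hhip by 1.92 ± 0.22. The Ihh call was lost without embryo 3, and the Shh call in both fits at 5000 UMIs. When 2 selection genes sufficed, Ihh differed by 0.74 (adjusted p = 0.25) and Shh by 0.57 (adjusted p = 0.40). The receptor Ptch1 had 110 ± 10.2 against 88.7 ± 6.69 CPM (log2 difference 0.30 ± 0.09, adjusted p = 0.053, and 0.0067 with the embryo as a block), and the other 5 of the 9 genes did not pass either. With the embryo as a block 5 were higher and 1 lower, the added ones being Ptch1, the signal transducer Smo (0.29 ± 0.09, adjusted p = 0.0026 with the block) and, on the lower side, the effector Gli2 (-0.50 ± 0.21, adjusted p = 0.0075 with the block). DESeq2 gave 5 and 0. Among genes of Nodal signalling and surface markers, 3 of 8 tested were higher: the chemokine receptor Cxcr4 (1.01 ± 0.19), the receptor tyrosine kinase Kit (0.90 ± 0.11) and Cd24a (0.68 ± 0.11). Without embryo 2 only the Kit call remained, and without embryo 3 the Cxcr4 call was lost. Outside the lists, Kitl, which encodes the ligand of Kit, had 145, 164 and 145 CPM in members against 33.6, 30.3 and 28.8. Its difference was 2.28 ± 0.09 (adjusted p = 4.3e-05), so a receptor and its ligand were both higher in the members.

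Transport and matrix genes formed a further group. Slc2a3, a glucose transporter, had 1662, 1607 and 1383 CPM in members and 440, 565 and 520 in the others, with no overlap and a difference of 1.60 ± 0.11 (adjusted p = 0.00017). Slc2a1, the other glucose transporter tested, was higher by 1.302 ± 0.08 and the lactate carrier Slc16a1 by 1.88 ± 0.22, while the lactate carrier Slc16a3 was lower by -0.50 ± 0.07. Of 9 basement membrane genes, 6 were higher and none lower, led by the collagens Col4a2 (1.47 ± 0.15) and Col4a1 (1.32 ± 0.14). The number was 4 without embryo 3, 0 when 2 selection genes sufficed and 8 with at least 4. Fn1 was higher by 0.53 ± 0.09, a call lost without embryo 3, and the laminin subunits Lama1 and Lamc1 did not pass, though Lamc1 did with the embryo as a block (adjusted p = 0.049) and both did with at least 4 selection genes.

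Gpx2, a selection gene, is a glutathione peroxidase. Of 13 other redox genes tested, Gpx8 was higher (0.63 ± 0.11), Gpx3 lower (-1.14 ± 0.27), and the other 11 did not pass. Under the embryo block 3 were higher, with Gsr and Txn1 added, and 3 lower, with Gpx4 and Gss added. The Gpx8 call was lost without embryo 3. The Gpx3 call was lost without embryo 2, without embryo 3 and against barcodes with fewer than 2 selection genes. Without the Ttr/Apoa1-high barcodes the Gpx3 difference was 0.28 and did not pass. None of 8 cell cycle genes was called by edgeR's quasi-likelihood test (1 at an unadjusted p below 0.05, and 1 called by DESeq2), the largest difference being that of Ccna2 (-0.22 ± 0.07, adjusted p = 0.057, and 0.0028 with the embryo as a block). Ccna2 was also called lower with at least 4 selection genes, against barcodes with fewer than 2, without the Ttr/Apoa1-high barcodes, with selection on thinned counts and without the top doublet scores. With the block Ccnb1 was called lower as well.

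By the fixed rule of size, the largest positive differences outside the lists were those of Cpn1, a secreted carboxypeptidase subunit (3.14 ± 0.31), Afap1l1 (2.81 ± 0.18) and the zinc finger gene Zbtb16 (2.70 ± 0.18). Dgkk, Kitl, Ap1s3, Pdpn, Gfpt2, Gsn, Cdh6, Cgn and Igfbp5 followed, between 1.92 and 2.30, and the Igfbp5 call was lost without embryo 2. Cgn encodes the tight junction protein cingulin and Cdh6 a cadherin. The largest negative differences were those of S100g, a calcium-binding protein (-3.12 ± 0.65), Slc13a4, an anion transporter (-2.17 ± 0.32), and S100a1 (-2.08 ± 0.39). S100g had 4.04, 13.98 and 7.67 CPM in members, 21.9, 113 and 71.5 in all others and 378, 609 and 572 in Ttr/Apoa1-high barcodes. Nrk, Tdh, Morc4, Hand2, Folr1, Foxf1, Fgf3, Sgk1 and Mef2c followed, between -1.84 and -1.56. Hand2 and Foxf1 are factors of lateral mesoderm, and Mef2c of cardiac and endothelial lineages. With the Ttr/Apoa1-high barcodes out of the comparison class, edgeR called Slc13a4 (1.24, adjusted p = 0.0037), Tdh (0.71, adjusted p = 0.0028) and Folr1 (2.26, adjusted p = 0.00091) higher in members. S100g (0.98), Nrk (0.73) and S100a1 (0.030) then had differences above 0 that did not pass, and Sgk1 was no longer called. The calls of S100g, Nrk, Tdh, Morc4 and Folr1 were lost without embryo 2 or embryo 3, and those of Slc13a4 and S100a1 without embryo 3. The Folr1 call was also lost with at least 4 selection genes and against barcodes with fewer than 2.

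Visceral endoderm genes gave opposite answers according to what endoderm cells were compared with. Against all other barcodes, 11 of 15 genes for secreted and uptake proteins were lower and 1, Spink1, was higher, with a median of -1.90. The number lower was 12 without embryo 1, 7 without embryo 2 and 3 without embryo 3. With the Ttr/Apoa1-high barcodes left out of the comparison class, 8 were higher and 1 lower, with a median of 1.35. For the 6 genes of the X-linked visceral endoderm set, including Rhox5 and Trap1a, edgeR without a block called none in the first case (median 0.20, 1 at an unadjusted p below 0.05), and 5 were higher in the second (median 3.01). In the first case 3 were higher with the embryo as a block (Trap1a, Xlr3a and Xlr5a) and 1, Trap1a, without embryo 1. In that case there were also 1 under DESeq2, 2 with at least 4 selection genes and 3 with selection on thinned counts. Its median was -0.49 when 2 selection genes sufficed. Apob, an apolipoprotein of lipid secretion, differed by -2.68 in the first and 1.82 in the second. Spink1 itself had 1257, 1367 and 1549 CPM in members and 433, 763 and 723 in all other barcodes, a difference of 1.11 ± 0.21 (adjusted p = 0.0096). Its call was lost without embryo 2 (adjusted p = 0.054) or embryo 3 (adjusted p = 0.091), and with barcodes of 2 selection genes included the difference was -0.19.

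The direct comparison with the 2490 Ttr/Apoa1-high barcodes, 289, 1257 and 944 per embryo, asked which genes separate both kinds of endoderm. The limit on Ttr and Apoa1 divides the classes, so genes that follow both had to differ, and the calls describe the classes. Of 12770 genes tested, 4482 were higher in endoderm cells, which is 35.1%, and 4287 were lower, which is 33.6%. All 15 genes for secreted and uptake proteins were lower, with a median of -4.94. Rbp4, the retinol carrier, had 41.2, 106 and 67.3 CPM in members against 4561, 5047 and 4710, a difference of -6.27 ± 0.31 (edgeR, adjusted p = 4.4e-08). Hnf4a had 1.14, 2.13 and 2.02 CPM against 95.0, 93.6 and 93.3, a difference of -6.05 ± 0.16 (adjusted p = 1.8e-09). Neither gene came near overlap between the classes.

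Over all members, Foxa2 and Gata6 differed little between both endoderm classes. Foxa2 had 60.6, 65.2 and 55.1 CPM in members and 51.9, 39.9 and 38.8 in the Ttr/Apoa1-high barcodes, a difference of 0.29 ± 0.11 (adjusted p = 0.032). That call was lost under DESeq2 (adjusted p = 0.053), without embryo 2 (0.27) and without embryo 3 (0.15), and the difference was -0.73 when members needed only 2 selection genes. Foxa2 had 24.5 ± 13.3 CPM in members with 3 selection genes and 56.6 ± 14.0 with 4. With 5 and 6 it had 83.4 ± 4.47 and 81.5 ± 9.42 CPM. Gata6 did not pass (0.22 ± 0.16), but was called higher with at least 4 selection genes (0.40) and without embryo 1 (0.46). Gata4, Eomes and Sox7 were lower, by -2.77, -1.73 and -4.89. All 11 rostral and all 12 caudal genes tested were higher in endoderm cells, with medians of 2.41 and 2.31, among them Cdx1 (3.33 ± 0.21), Cer1 (3.74 ± 0.38) and Otx2 (2.41 ± 0.15). Sox2 (2.16 ± 0.13) and 9 of 11 mesenchymal genes were higher as well, and 5 of 5 tested presomitic mesoderm markers were too, so the higher side includes genes of other lineages.

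Within the epithelial list, the claudins Cldn6 and Cldn7 were lower in endoderm cells (-0.83 ± 0.09 and -1.22 ± 0.16), and Cldn4, Krt7 and Grhl2 were higher (4.10 ± 0.44, 3.27 ± 0.28 and 3.19 ± 0.21). Ihh was lower by -1.16 ± 0.22 while its receptor Ptch1 was higher by 2.02 ± 0.10. Apln was lower by -3.34 ± 0.30 and Aplnr higher by 1.27 ± 0.27. Outside the lists, Afap1l1 was higher by 4.08 ± 0.19, Sp5, a Wnt target, by 4.07 ± 0.16 and Isl1 by 3.81 ± 0.27. The strongest on the lower side was Slc2a2, the glucose transporter of liver and visceral endoderm, with 0.618, 2.91 and 1.41 CPM against 289, 275 and 266 (-7.84 ± 0.27). Creb3l3, a hepatic transcription factor, differed by -7.32, and Apoc3 and Abcc2, genes of hepatic lipid metabolism and transport, by -7.15 and -7.04.

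The node and notochord class, 81, 77 and 82 barcodes, was the other class with high Foxa2. Of 11951 genes tested, 642 were higher in endoderm cells, which is 5.37%, and 1359 were lower, which is 11.4%. With the embryo as a block the higher count was 1246, and leaving out 1 embryo gave 357 without embryo 1, 260 without embryo 2 and 320 without embryo 3. With at least 4 selection genes 980 were higher. Foxa2 had 60.6, 65.2 and 55.1 CPM in endoderm cells and 135, 118 and 84.4 in the node class, a difference of -0.88 ± 0.14 (edgeR, adjusted p = 0.00052) without overlap.

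The lower side was led by genes of motile cilia. Tekt4, a tektin of the axoneme, had 0.0476, 0.112 and 0 CPM in members against 37.3, 42.0 and 31.8 (-9.10 ± 0.35), and the dynein light chain Dynlrb2 and the ciliary genes Morn5 and Nme9 differed by -8.63, -8.60 and -8.80. Fam183b and Hdc, which encodes histidine decarboxylase, differed by -8.88 and -8.62. The rule excluded every barcode with a UMI of the ciliary regulator Foxj1, so genes expressed together with it had to differ. Nodal had 0.761, 1.23 and 2.02 CPM against 101, 30.8 and 58.3 (-5.71 ± 0.42), Aplnr differed by -3.35 ± 0.18, Lhx1 by -2.41 ± 0.21 and the keratin Krt19 by -1.83 ± 0.25. The hedgehog receptor Ptch1 and the effector Gli1 were lower in endoderm cells by -0.97 ± 0.10 and -1.42 ± 0.26, while Ihh was higher by 2.34 ± 0.35.

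On the higher side, Epcam had 406, 576 and 431 CPM in endoderm cells against 234, 210 and 189 (1.18 ± 0.13), and 10 of 18 epithelial genes were higher and 1 lower, or 6 and 1 without embryo 2. Cdh6 had 28.9, 33.1 and 25.2 CPM against 3.45, 3.55 and 3.26, the largest positive difference outside the lists (3.105 ± 0.22, adjusted p = 3.2e-07). Prdm1 (1.87 ± 0.28), Pax9 (2.00 ± 0.30), Hhex (2.45 ± 0.43) and Nkx2-5 (2.51 ± 0.58) were higher, as were Slc2a3 (1.68 ± 0.13), Slc16a1 (1.95 ± 0.20) and Spink1 (2.08 ± 0.18). The Nkx2-5 call was lost without embryo 1, and when 2 selection genes sufficed the calls of Ihh, Pax9, Hhex and Nkx2-5 were lost. Of 9 basement membrane genes 7 were higher, or 4 without embryo 2. Of 8 cell cycle genes 6 were higher by 0.32 to 0.49, Mki67 by 0.49 ± 0.11 (adjusted p = 0.0070), but none was called without embryo 1 or without embryo 2, where 7 had an unadjusted p below 0.05, and 2 were called without embryo 3. Cdx1, Cdx2, Cdx4 and Sox2 did not pass. With at least 4 selection genes Cdx4 (-0.94, adjusted p = 0.0046) and Sox2 (-0.99, adjusted p = 0.00022) were lower, and when 2 sufficed Cdx1 (0.93) and Cdx4 (1.09) were higher.

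Among the members themselves, Spink1 had the most variable counts in the mean of the 3 embryos, though in embryo 1 Gm42418 was above it (23.4 against 13.8). Its Fano factor, the variance over the mean of counts thinned to 5000 UMIs, was 13.9 ± 2.53 (SD, n = 3 embryos), against a median of 1.03 over 7127 genes. Apoe (7.03 ± 0.739), the imprinted gene Phlda2 (6.24 ± 1.20) and the selection genes Trh (6.65 ± 1.77) and Ttr (6.12 ± 0.388) were also in the top 10. The others were Gm42418, which overlaps ribosomal RNA, the mitochondrial genes mt-Co3 and mt-Atp6, the nuclear RNA Malat1, and Fth1, a ferritin subunit. The first 3 of these differed most between embryos, mt-Co3 from 6.95 in embryo 2 to 13.8 in embryo 1.

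Rhox5 and Trap1a, genes of the X chromosome known for high activity in extraembryonic lineages, were detected in some members and not detected in most. In mm10 Rhox5 lies at chrX:37804842-37808876 and Trap1a at chrX:139333683-139338169, both on the plus strand. No UMI of either was found in 1108 members, 1 UMI in 125, and at least 2 UMIs in 360, of which 325 held 4 or more. The share with at least 2 UMIs was 16.2%, 27.4% and 27.2% in the 3 embryos, or 23.6% ± 6.37 (SD, n = 3), lowest in embryo 1. Presomitic barcodes, which should lack both genes, had 4.91% ± 1.90 despite their greater depth. At 5000 UMIs the shares were 16.5% ± 5.03 and 1.47% ± 0.790. The share was 15.4% ± 1.81 in the node class and 99.5% ± 0.115 in Ttr/Apoa1-high barcodes. Among caudal members it was 18.5%, 36.7% and 30.6%, and among rostral members 18.4%, 9.0% and 16.1%, so the caudal share was higher clearly in 2 of 3 embryos. Caudal members were deeper and had more top doublet scores, and the part of both in the difference was not tested.

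**Figure D4:**
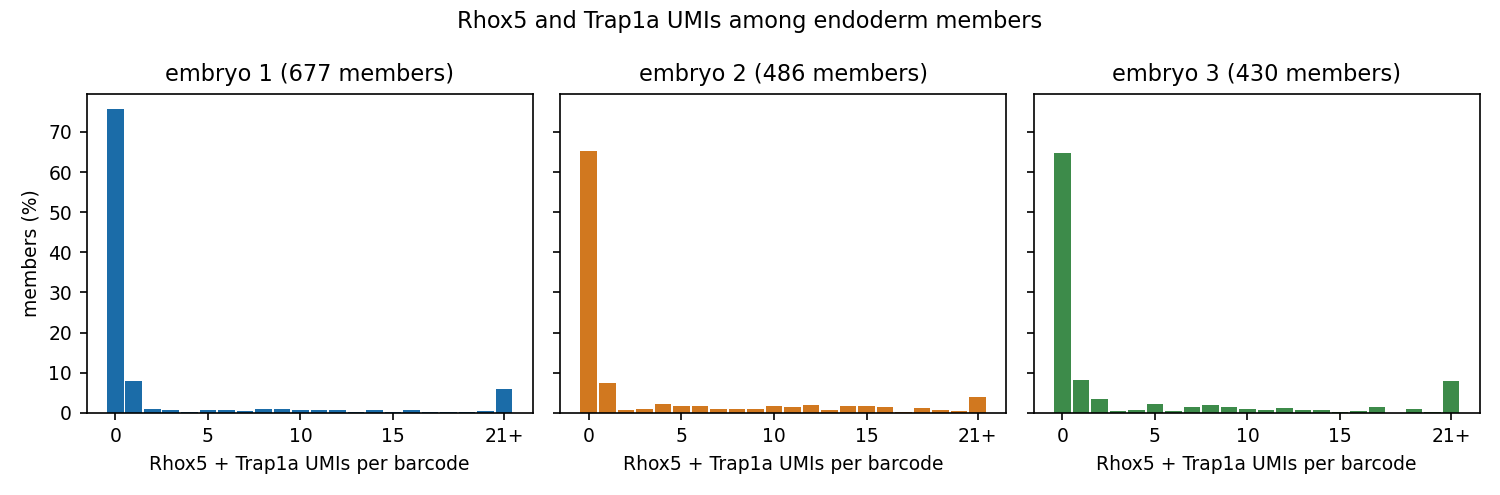
Percent of members (y axis) by the number of Rhox5 and Trap1a UMIs together per barcode (x axis), for each of the 3 embryos, with counts of 21 or more in the last bar. Most members hold 0, few hold 1 to 3, and the rest spread over higher counts.

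Members with at least 2 UMIs of Rhox5 and Trap1a (110, 133 and 117 per embryo) were compared with those that had none (513, 317 and 278). Rhox5, Trap1a and the 11 selection genes were left out of the test, and genes that follow Rhox5 and Trap1a between cells had to differ. Of 10981 genes, 551 were higher, which is 5.02%, and 106 were lower, which is 0.965%. With the embryo as a block the counts were 1115 and 718. Leaving out 1 embryo gave 239 and 29 without embryo 1, 368 and 57 without embryo 2, and 193 and 5 without embryo 3. The positive members were deeper, with a median of 24457 UMIs against 16898. With barcodes thinned to 5000 UMIs and the split made anew on the thinned counts, which left 71, 90 and 82 positive and 560, 340 and 319 negative members, the counts were 601 and 323. They were 638 and 222 without the top doublet scores, and 517 and 93 without barcodes under 0.5% mitochondrial UMIs.

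Genes of visceral endoderm were higher in the Rhox5/Trap1a-positive members. Of 14 genes for secreted and uptake proteins tested, 12 were higher and none lower, with a median of 2.35 against 0.00 over all genes tested. That count was 12 without any 1 embryo, 12 with at least 4 selection genes, 12 without the top doublet scores, and 11 of 12 with the split made on thinned counts. Amn, an endocytic coreceptor of visceral endoderm, had 98.7, 88.5 and 89.3 CPM in positive members and 2.78, 6.54 and 8.42 in negative ones. It was higher by 4.14 ± 0.27 (edgeR, adjusted p = 4.3e-06) with no overlap. Apob had 111, 86.6 and 94.0 CPM against 3.33, 9.11 and 8.42, a difference of 3.97 ± 0.27 (adjusted p = 6.0e-06). Afp, which encodes the serum protein alpha-fetoprotein, differed by 4.14 ± 0.35, Apom by 3.18 ± 0.30 and Rbp4 by 2.37 ± 0.32. Lrp2, the endocytic receptor megalin, did not pass (15.6 ± 3.84 against 15.8 ± 1.85 CPM, -0.03 ± 0.20), and Apoa2 did not pass (1.28 ± 0.40, adjusted p = 0.090, and 0.027 with the embryo as a block).

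Positive members had lower levels of these genes than the Ttr/Apoa1-high class, as the Ttr and Apoa1 limit of the rule favours. Amn stood at 92.2 ± 5.69 CPM in positive members and 733 ± 34.8 in that class, and Rbp4 at 166 ± 33.2 and 4773 ± 249. The UMI ratio of Rhox5 to Trap1a, the genes that chose the positive members, was 1.11 ± 0.0600 in them, 2.61 ± 0.106 in the Ttr/Apoa1-high class and 1.97 ± 0.106 in presomitic barcodes. It was 0.706, 1.02 and 1.98 in the node class, which took in the range of the positive members. These ratios are a description. Of the positive members 10.8% had a top doublet score, against 8.21% of the negative ones.

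**Figure D5:**
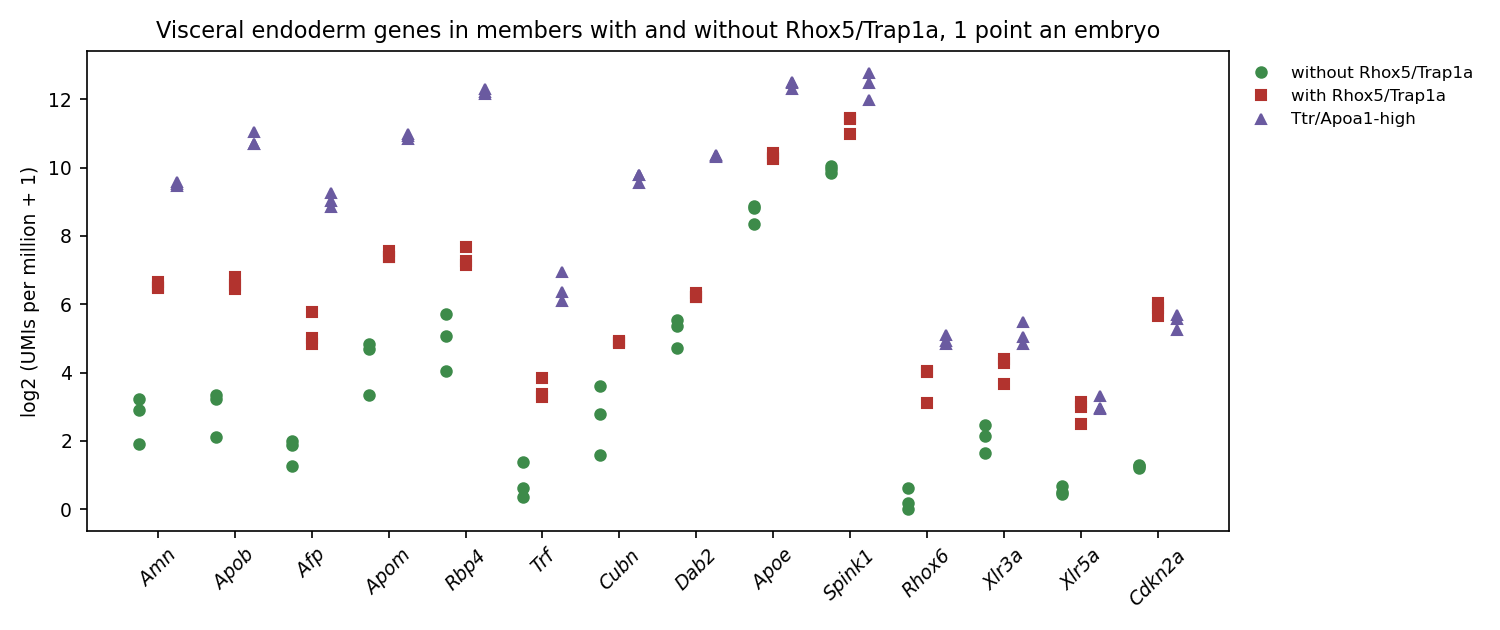
Level as log2 of CPM plus 1 (y axis) of 14 genes in members without and with Rhox5/Trap1a and in Ttr/Apoa1-high barcodes; each point is 1 embryo. Members with Rhox5/Trap1a lie between the other classes for Amn, Apob, Afp, Apom, Rbp4, Trf, Cubn, Dab2, Apoe, Spink1, Rhox6 and Xlr3a, while Cdkn2a and Xlr5a overlap or nearly reach the Ttr/Apoa1-high level.

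Other X-linked genes of the same set were higher too. Rhox6, a homeobox gene beside Rhox5, had 7.60, 15.3 and 15.7 CPM in positive members and 0.139, 0 and 0.537 in negative ones. Xlr5a and Xlr3a were higher by 3.81 ± 0.39 and 2.30 ± 0.27, so all 3 tested genes of this set were higher. The Rhox and Xlr families have near-identical copies, and reads shared between copies make the values of single members uncertain. The strongest gene outside the lists was Cdkn2a, a cell cycle inhibitor locus on chromosome 4. It had 64.1, 58.6 and 49.2 CPM against 1.32, 1.39 and 1.43, a difference of 5.37 ± 0.18 (adjusted p = 1.4e-08). In the Ttr/Apoa1-high class it had 44.6 ± 7.05 CPM, so positive members reached the level of that class. Gsn, an actin-severing protein (4.03 ± 0.15), Fmr1nb, also X-linked (3.92 ± 0.33), the protease Ctsh (3.69 ± 0.23), the selenium carrier Selenop (3.06 ± 0.13) and the folate receptor Folr1 (2.96 ± 0.26) came next. Gsn, called higher in all members together than in all other barcodes, had 84.3 ± 9.25 CPM in positive members. In negative members it had 5.02 ± 1.09 CPM, and in all barcodes outside the members 6.45 ± 0.731.

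Promoters of 2 genes of the X-linked set whose RefSeq start equals the annotated gene start are shown, since Trap1a was used to split the members and Xlr3a differed between them. Each is 300 bases around the start from RefSeq, on build GRCm38.p6 (mm10), with the dinucleotide CG, the target of DNA methylation, in capitals. Trap1a lies at chrX:139333433-139333732 on the plus strand with 8 CG pairs, and Xlr3a at chrX:73097046-73097345 on the minus strand with 5. Over all 32851 promoters of the same length the median was 7, and 54.2% and 43.6% had as few or fewer. Neither count was unusual, and methylation was not measured here.
Trap1a: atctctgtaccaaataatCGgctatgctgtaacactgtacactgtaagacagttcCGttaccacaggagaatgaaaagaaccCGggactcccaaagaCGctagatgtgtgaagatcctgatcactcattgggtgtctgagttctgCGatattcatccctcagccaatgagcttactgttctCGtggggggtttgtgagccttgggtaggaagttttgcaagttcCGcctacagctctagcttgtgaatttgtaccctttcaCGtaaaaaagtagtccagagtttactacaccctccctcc
Xlr3a: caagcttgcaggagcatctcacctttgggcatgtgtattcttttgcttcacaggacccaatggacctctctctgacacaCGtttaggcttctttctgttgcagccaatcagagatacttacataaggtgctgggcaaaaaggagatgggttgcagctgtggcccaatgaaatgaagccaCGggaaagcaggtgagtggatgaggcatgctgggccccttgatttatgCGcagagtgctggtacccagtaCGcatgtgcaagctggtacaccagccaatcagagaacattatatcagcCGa

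Few endoderm transcription factors and caudal genes were called within the members. Of 13 endoderm transcription factors 1 was higher, and of 12 caudal genes 1 was higher and 1 lower, from which nothing is read about these lists. Foxa3 had 51.1, 46.4 and 39.2 CPM in positive members and 15.5, 19.8 and 9.49 in negative ones, a difference of 1.60 ± 0.20 (adjusted p = 0.00060). In the main fit, on all 3 embryos with the filter on low counts and no block, it was the single transcription factor called. Without that filter Gsc was called as well. With the embryo as a block Hnf4a was higher and Gsc lower as well, and with at least 3 UMIs of Rhox5 and Trap1a 3 factors were higher. Krt19 was higher by 2.10 ± 0.26, the matrix gene Fn1 by 0.80 ± 0.11 and the posterior gene Hoxa7 by 1.62 ± 0.25, all 3 without overlap between the classes. Epcam, Cldn6, Cldn7 and Spint2 were higher by 0.49 to 0.74. The Epcam, Cldn6 and Spint2 calls were lost without embryo 1, without embryo 3 and with at least 4 selection genes, and the Cldn7 call without embryo 3. Of 18 epithelial genes 5 were called higher, 2 without embryo 1, 1 without embryo 3 and 11 with the embryo as a block.

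On the lower side were the rostral genes Hhex (-1.60 ± 0.40, adjusted p = 0.036), Dkk1 (-0.62 ± 0.15) and Hesx1 (-0.82 ± 0.21). Of 10 rostral genes these 3 were lower, none without embryo 3, and 7 with the embryo as a block. The Hesx1 call was lost when any 1 embryo was left out, under DESeq2 and with at least 4 selection genes, and the Dkk1 call without embryo 1 or embryo 3. Hhex had 16.7, 12.2 and 9.09 CPM against 21.8, 68.5 and 28.3, so negative members of embryo 2 were far above the rest, and without embryo 2 the Hhex difference was -0.92 and no longer passed (adjusted p = 0.085). Its call was also lost without embryo 3, under DESeq2 and without barcodes under 0.5% mitochondrial UMIs, where the Spint2 call was lost too. Cdx1 was lower by -0.71 ± 0.17, a call lost without embryo 1, without embryo 3 and with at least 4 selection genes. Nkx1-2, a gene of caudal progenitors, was lower by -1.32 ± 0.22, followed by Crabp2, a retinoic acid binding protein (-0.97 ± 0.23), and Prps1 (-0.92 ± 0.17). The Crabp2 and Prps1 calls were lost without embryo 1, without embryo 3 and with at least 4 selection genes, and the Nkx1-2 call without embryo 3. At a limit of 1 UMI of Rhox5 and Trap1a, 10 named calls were lost, among them those of Nkx1-2, Hhex, Hesx1, Epcam and Cldn6. In the main edgeR fit without a block, and by DESeq2, none of 9 hedgehog, 4 transport or 8 cell cycle genes was called. Of them 1, 1 and 2 had an unadjusted edgeR p below 0.05 in the main fit. Ptch1, Gli2, Slc16a3, Ccna2 and Ccnb1, between -0.21 and -0.80 without the block, were called lower with it. Other edgeR fits without a block called some of these too. They were Gli2, Slc16a3, Ccna2 and Ccnb1 without the filter on low counts, and Slc16a3 without the top doublet scores. With at least 3 UMIs of Rhox5 and Trap1a they were Slc16a3 and Ccna2. With the split made on thinned counts 2 hedgehog and 3 cell cycle genes were lower. The selection genes were not tested, and there were 790, 638 and 709 CPM of Trh in positive members against 353, 364 and 264 in negative ones. Gpx2 and Sox17 were also higher in each embryo, while Cpm and Foxa1 were lower in embryo 2 only. Apela had 400, 266 and 298 CPM against 385, 427 and 332, lower in embryos 2 and 3. Positive members more often held at least 4 selection genes. These were 104, 113 and 97 of the 110, 133 and 117 positive members. Among the 513, 317 and 278 negative members they were 371, 224 and 189. The part of this imbalance in the levels of the selection genes was not tested.

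Markers of other cell types were not absent from the members. Summed over 6 presomitic markers, members had 99.7 ± 25.1 CPM against 197 ± 47.3 in the others, most of it Rspo3 (60.8 ± 16.6), and with at least 4 selection genes the sum was 66.2 ± 11.6. The 3 neuroectoderm markers summed to 71.4 ± 14.4 against 102 ± 10.99 CPM, led by Sox2 (46.3 ± 6.93), and to 40.2 ± 5.00 with at least 4 selection genes. The 3 paraxial mesoderm markers gave 38.8 ± 5.41 against 85.7 ± 17.8 CPM, led by Tcf15 (17.5 ± 5.08), and the 3 cardiac markers 43.8 ± 4.59 against 122 ± 43.6, led by Myl7 (33.6 ± 4.64). Each of these sums was lower in members than in other barcodes.

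The 8 node and notochord markers summed to 88.5 ± 8.04 against 79.1 ± 11.05 CPM, most of it T (61.2 ± 8.99), with the defining genes Noto and Foxj1 at 0 by the rule. The 6 visceral endoderm markers gave 868 ± 198 against 2248 ± 1126 CPM, led by Apoe (650 ± 115), and 1035 ± 166 with at least 4 selection genes. Blood markers were uneven, at 1.57, 129 and 13.6 CPM in members against 1.42, 1209 and 162 in the others, most in embryo 2 in both classes. Endothelial markers gave 8.71 ± 2.05 against 89.3 ± 12.7 CPM, with Kdr at 0 by the rule. Surface ectoderm (22.6 ± 2.55 against 27.9 ± 1.90 CPM), mesenchyme (61.7 ± 8.55 against 84.2 ± 13.2), allantois (7.02 ± 2.69 against 18.9 ± 5.81) and germ cell markers (7.61 ± 2.94 against 6.76 ± 1.58) completed the set, led by Wnt6, Ahnak, Hoxa10 and Dnd1. The mean of the germ cell sum was higher in members, but the embryos of both classes overlapped and none of the 3 genes was called. The part of such cells or of free RNA in the results was not tested.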

How the data were processed

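Single-cell suspensions of 3 wild-type embryos were captured with 10x Genomics chemistry, 1 library per embryo. The authors aligned reads to mm10, with an EGFP sequence added, and counted UMIs with Cell Ranger 3.1.0. The deposited values are raw counts per gene and barcode, 1 filtered matrix per embryo.

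Barcodes with 1500 to 8500 genes (up to 7500 in embryo 2) and at most 10% mitochondrial UMIs were kept, in all 6129, 8116 and 7923 with 195477519, 145760007 and 166042809 UMIs. Doublet scores came from Scrublet in scanpy 1.11.5. Its own threshold called 1 barcode per library, which is no working call, so the top 6% of scores served as an alternative. UMIs were summed per embryo and class, and edgeR 4.0.16 in R 4.3.3 (quasi-likelihood test, TMM scaling, Benjamini-Hochberg adjusted p below 0.05, without the selection genes) was run on all genes that passed edgeR's filter on low counts. Both classes of an embryo come from the same animal, which pairs them, and the correlation of their deviations was 0.201 or more in every pair. The fit with the embryo as a replicate block was an alternative, as was DESeq2 1.42.0. Each embryo is 1 replicate, cells are not, and intervals cover 3 embryos of 1 group. Named genes outside the lists were the 12 (first comparison) or 8 largest per direction with no overlap between classes and at least 20 CPM in the higher class. Scripts were tested on simulated data. A few genes are not reported here by name, though the counts include them. The members and lists were chosen with earlier results of these data known.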

Additional observations from a re-analysis of the deposited data

Results flagged for a closer look

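The reference of the authors held an EGFP sequence, which the wild-type embryos should lack. Embryo 1 had 31 UMIs of it in 21 barcodes and embryo 3 had 32 in 22 barcodes, while embryo 2 had 0. They were flagged because that feature takes no part in any comparison, and none of these UMIs lay in an endoderm cell.

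Barcodes outside the quality limits also met the gene criteria for endoderm cells. There were 35 in embryo 1, 10 in embryo 2 and 8 in embryo 3, and they were not used.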

How the results depend on the processing

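Depth and the 3 embryos limit these results. The share of barcodes was 7.49% and 15.8% when 2 selection genes sufficed, and leaving out 1 embryo gave 5.71% to 8.52%. Against all other barcodes, leaving out 1 embryo gave 477 to 1163 genes higher and 149 to 788 lower. The replicate block, which pairs the classes of an embryo, gave 2629 and 2691, and all named genes called without the block kept their call under it. With 2 selection genes 584 were higher, with at least 4 1882 were lower, and with selection on thinned counts 1649 were lower. Against node and notochord, 260 to 357 genes were higher without 1 embryo, 1065 without a filter on low counts, 1246 with the replicate block and 980 with at least 4 selection genes. For Rhox5/Trap1a-positive members, leaving out 1 embryo gave 193 to 368 higher and 5 to 57 lower, no filter 864 and 391, the replicate block 1115 and 718, and a limit of 1 UMI 210 and 8. The lower count was 295 with at least 3 UMIs, 323 with the split made on thinned counts and 222 without top doublet scores. Against Ttr/Apoa1-high barcodes no count moved by over 1.5 times. The causes were not tested.

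Reversals of named genes against all other barcodes occurred when 2 selection genes sufficed, for Gata6 (-0.45), Apln (0.026), Pcsk2 (0.0065), Fn1 (-0.044), Lama1 (-0.071), Spink1 (-0.19), Gli2 (0.044), Xlr5a (-0.18), Xlr3a (-0.60) and Trap1a (-0.39). Without Ttr/Apoa1-high barcodes Hnf4a was 1.33, Gpx3 0.28, Apob 1.82, Gata6 -0.016, S100g 0.98, Slc13a4 1.24, S100a1 0.030, Nrk 0.73, Tdh 0.71 and Folr1 2.26. Gata6 ranged from -0.10 to 0.21 when 1 embryo was left out and was -0.040 against barcodes with fewer than 2 selection genes, and Cdx2 was -0.10 with selection on thinned counts. Against Ttr/Apoa1-high barcodes Foxa2 was -0.73 and Gata6 -0.20 with 2 selection genes, and Gata6 ranged from -0.050 to 0.46 when 1 embryo was left out. Against the node class Cdx2 was 0.30 and Sox2 0.38 with 2 selection genes, Cdx1 -0.31 and Cdx4 -0.94 with at least 4, Cdx1 from -0.084 to 0.31 without 1 embryo, and Cdx4 -0.15 without top doublet scores. Lrp2 in positive members was from -0.19 to 0.044 without 1 embryo and 0.10 with a limit of 1 UMI. The fits of positive members with at least 4 selection genes, and those without low-mitochondrial barcodes in the other 3 comparisons than the first, were chosen after seeing the data.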
